A study of Mus musculus with 12 samples.

Results

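The replication-dependent histone genes encode the bulk histones of the nucleosome. They were taken as the genes of the deposited raw counts whose symbol starts with Hist1h, Hist2h, Hist3h or Hist4h. This rule gave 68 of the 24062 gene symbols, of which 6 belonged to the linker histone class H1, 18 to H2A, 19 to H2B, 12 to H3 and 13 to H4. The H2B class included Hist3h2bb-ps, which carries a pseudogene suffix. The group was selected on measured values: the log2 fold changes of gene sets that hold histone genes had been higher in P301S Tia1+/- than in PS19 cortex in an earlier look at these libraries. For this reason the values of that comparison are given as a description with no p-value for single genes, and counts of calls are printed there only beside those of all genes.

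The study sequenced total RNA from the cortex of mice at 9 months of age (each group had 3 mice, and each mouse gave 1 library) to ask how P301S tau and a loss of Tia1 change the transcriptome. WT mice carried neither alteration. PS19 mice carried the human P301S tau transgene of the PS19Vle line on a mixed B6 and C3 background, which the prion protein promoter drives, and Tia1+/- mice had 1 functional copy of Tia1 (B6.129S2(C)-Tia1tm1Andp/J, backcrossed to C57BL/6J). P301S Tia1+/- mice carried both, and the study describes their P301S controls as littermates. Mice with end-stage symptoms had been left out by the study. The deposited titles and genotype entries name the Tia1+/- and P301S Tia1+/- libraries the other way round, and the titles were followed here.

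In most animals these genes lie in a few dense clusters and lack introns, and their transcription is coupled to DNA synthesis. Their mRNAs are unusual in that they end in a conserved stem-loop in place of a poly(A) tail. The stem-loop is bound by SLBP, the stem-loop binding protein, and the cut behind it is made by a complex that holds the U7 snRNP. Libraries made from total RNA hold such transcripts, whereas libraries made from poly(A) RNA lose most of them. Neurons of the adult cortex do not divide, and some histone genes also give polyadenylated transcripts in such cells.

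The stem-loops are shown because they are the feature that sets these mRNAs apart and because they differ between the classes whose counts are described next. A search of the annotated transcripts (GENCODE M21, GRCm38) for a stem of 6 bases and a loop of 4 bases behind the stop codon found one in 46 of the 68 genes, 31 of them among the genes tested. The pattern also had to open with GG and close with CC, with C or T in the next bases and mostly T at the start of the loop. These traits were thus set by the search, and a stem-loop of another form would be missed. The other annotated transcripts held no match to this pattern. Some of them, such as those of Hist1h4k, Hist1h2bl and Hist1h3h, end at the stop codon, so nothing behind it could be searched. For such genes a missing match does not show that the mRNA lacks a stem-loop. Capitals mark the stem-loop, and the lower case bases are its 5 flanking bases on each side.
Hist1h1c (H1): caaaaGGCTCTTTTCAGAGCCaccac
Hist3h2a (H2A): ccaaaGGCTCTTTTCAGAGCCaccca
Hist1h2bm (H2B): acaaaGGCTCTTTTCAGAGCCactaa
Hist1h3g (H3): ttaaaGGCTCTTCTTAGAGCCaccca
Hist1h4d (H4): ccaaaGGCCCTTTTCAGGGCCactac
Hist1h4c (H4): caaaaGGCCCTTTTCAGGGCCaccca
Hist2h4 (H4): ctaacGGCCCTTTTTAGGGCCaacca
Hist1h4j (H4): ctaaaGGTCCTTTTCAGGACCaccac

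The same 16-base core, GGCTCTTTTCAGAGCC, was found in 3 of 4 H1, 10 of 11 H2A, 8 of 10 H2B and 5 of 9 H3 genes with a stem-loop. None of the H4 genes had this core. Of the 12 H4 genes with a stem-loop, 10 had a stem that opens with GGCCC, and the other 2, Hist1h4j and Hist1h4b, had GGTCC. The GG was set by the search, which allowed only C or T in the bases next to it. The stem-loop began between 21 and 58 bases after the stop codon, with a median of 31. In 23 of the 46 genes the annotated transcript ran on for more than 100 bases behind the stem-loop.

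Promoters also differed between the classes. In the 250 bases before the annotated start (RefSeq, GRCm38.p6), read on both strands, the letters CCAAT were present in all 6 H1, all 18 H2A and all 16 H2B genes with such a window, in 8 of 10 H3 genes and in 3 of 12 H4 genes, against 33.8% of 32851 windows of all genes. TATAAA was present in 46.8% of the 62 histone windows and in 12.4% of all windows. The octamer ATTTGCAT, known from H2B promoters, was present in 7 H2A and 6 H2B windows, in no window of the other classes and in 1.60% of all windows. The windows of Hist1h2bn (chr13:21753826-21754075, plus strand), which lies head to head with Hist1h2ak, and of Hist1h4j (chr13:21734784-21735033, plus strand) are printed as examples of a window with and a window without these letters, since both genes are followed through the groups in the values that come next. Capitals mark CCAAT and TATAAA on either strand.
Hist1h2bn: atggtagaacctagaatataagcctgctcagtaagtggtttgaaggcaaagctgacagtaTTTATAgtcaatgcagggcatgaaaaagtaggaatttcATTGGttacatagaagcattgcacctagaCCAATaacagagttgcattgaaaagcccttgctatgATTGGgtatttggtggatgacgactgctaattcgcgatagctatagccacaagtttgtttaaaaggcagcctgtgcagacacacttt
Hist1h4j: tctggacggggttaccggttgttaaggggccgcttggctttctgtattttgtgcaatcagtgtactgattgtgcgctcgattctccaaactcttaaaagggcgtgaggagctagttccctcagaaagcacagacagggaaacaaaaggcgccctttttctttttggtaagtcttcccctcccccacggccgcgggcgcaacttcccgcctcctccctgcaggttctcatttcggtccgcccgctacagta

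The libraries held between 11978962 and 19146484 counts. Some libraries stood apart from others of their group. The summed level of 8 markers of cortical neurons was 737 CPM (counts per 1000000, TMM scaled) in WT replicate 1 and 651 CPM in Tia1+/- replicate 3, against 932 to 1412 CPM in the other 10 libraries. The summed level of 15 genes of the olfactory bulb and its sensory axons was 1675 CPM in WT replicate 1 and between 1088 and 1230 CPM in P301S Tia1+/- mice, against 42.6 to 271 CPM elsewhere. Xist was between 217 and 367 CPM in both groups that carry the Tia1 allele and at most 0.783 CPM in WT and PS19, and Ddx3y, on the Y chromosome, was at most 0.119 CPM in the former and between 119 and 169 CPM in the latter. The study states that male mice were used unless noted otherwise. Whether these genes follow the Tia1 genotype or the sex of the mice cannot be told apart in these libraries. The same limit holds for every comparison of a group that carries the Tia1 allele with a group that does not. Tia1 itself ranged from 75.4 to 93.8 CPM in WT, 61.4 to 79.8 CPM in Tia1+/-, 70.8 to 77.9 CPM in PS19 and 72.6 to 77.8 CPM in P301S Tia1+/-, and passed the threshold in none of the comparisons, so it gives no check of the labels. Whether the altered allele still gives counted reads was not tested.

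Counts of histone genes made up between 0.0556% and 0.0992% of a library. H4 took 40.9% of them, H2B 20.7%, H1 17.1%, H2A 12.5% and H3 8.81%. Of the 68 genes, 15 had at most 3 counts in every library, 8 of these had none in any library, and 47 passed the filter on low counts (5 H1, 9 H2A, 14 H2B, 7 H3 and 12 H4 genes). Per kilobase of the RefSeq gene, the highest mean levels over all libraries were those of the H4 genes Hist1h4k (178 CPM per kb), Hist1h4d (123) and Hist1h4j (110), followed by Hist3h2a (90.6) and Hist2h2bb (90.4). The highest among H1 genes was Hist1h1c with 58.7 CPM per kb, and among H3 genes Hist1h3i with 45.0 CPM per kb. Hist1h1t, the testis H1 gene, had between 0 and 3 counts in a library, Hist1h2ba, a testis H2B gene, had 1 count in WT replicate 1 and none in the other 11 libraries, and Hist1h2aa had none.

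The sum over all 68 genes was highest in P301S Tia1+/- mice. It was 964, 897 and 858 CPM in the 3 P301S Tia1+/- libraries and 723, 581 and 614 CPM in the PS19 libraries. In Tia1+/- mice it was 685, 771 and 715 CPM, and in WT mice 880.5, 691 and 688 CPM. The P301S Tia1+/- libraries lay above all PS19 and Tia1+/- libraries, but WT replicate 1 lay above the lowest of them, and WT overlapped with each other group. The mean of P301S Tia1+/- (907 ± 53.7 CPM, SD, n = 3) was 1.42 times that of PS19 (640 ± 74.5), 1.25 times that of Tia1+/- (724 ± 43.5) and 1.20 times that of WT (753 ± 110.4), or 1.31 times without WT replicate 1. In RNA from whole tissue, more cells that express these genes and more of their RNA per cell cannot be told apart.

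**Figure D1:**
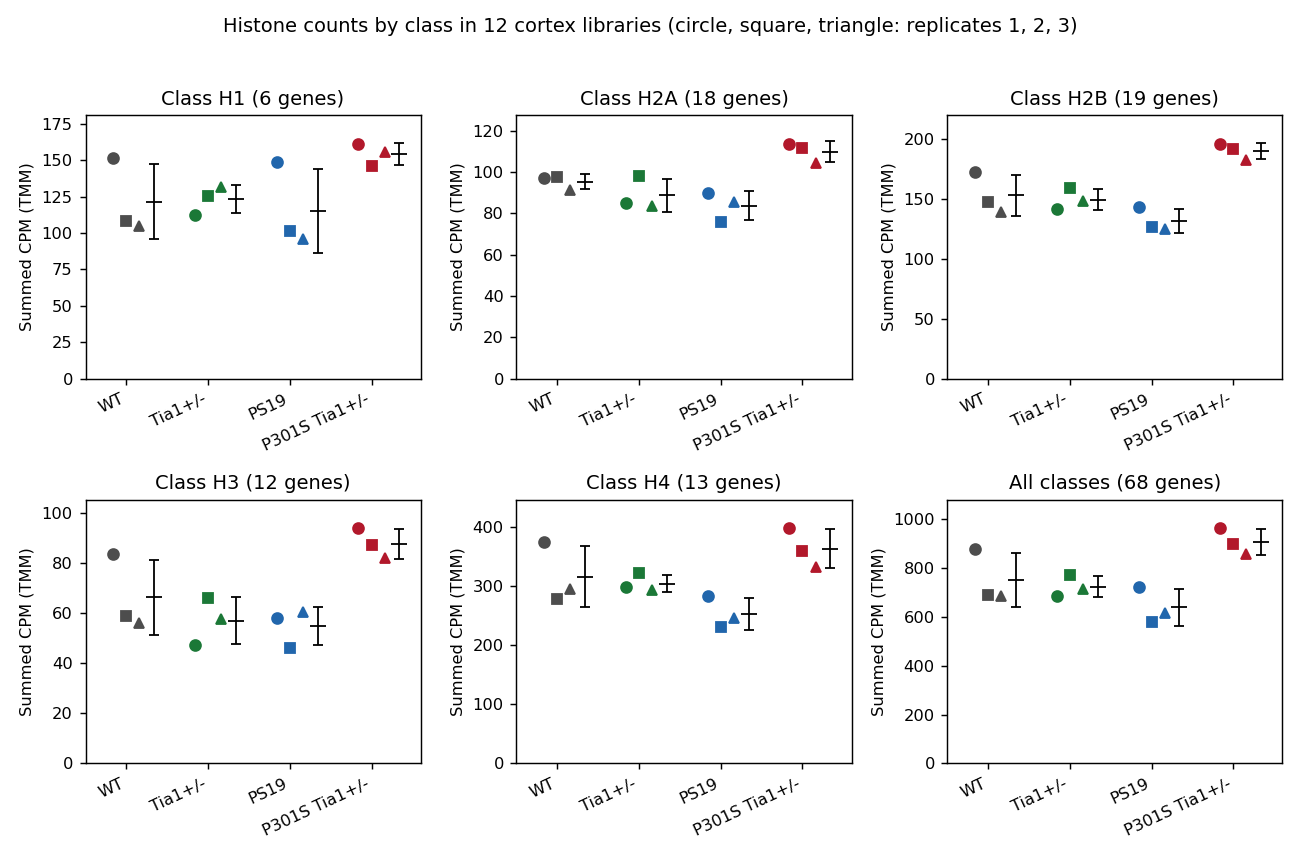
Summed CPM (counts per 1000000, TMM scaled) of the histone genes of each class in the 12 libraries, by group. Points are libraries and the black mark to their right is the mean with the SD of 3 libraries. P301S Tia1+/- libraries lie above the PS19 libraries in every class except H1, where PS19 replicate 1 (148.5 CPM) lies above P301S Tia1+/- replicate 2 (146 CPM), and WT replicate 1 lies above the other WT libraries in all classes except H2A.

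In P301S Tia1+/- against PS19 mice, 42 of the 47 genes tested had a higher level, as had 51.5% of all genes, and 5 a lower one, with a median log2 fold change of 0.51, where the median over all 15440 genes tested was 0.0097. By edgeR's quasi-likelihood test 0 of the 47 had an adjusted p under 0.05, as had 0.24% of all genes tested, and 26 had an unadjusted p under 0.05, all of them higher, where 11.7% of all genes were higher and 7.62% lower at that limit. DESeq2's Wald test called 11 of them, beside 4.93% of all genes. The libraries of both groups did not overlap for 30 genes, all higher, where 20.2% of all genes were higher and 18.2% lower without overlap. Nothing is read from these counts, since this contrast led to the choice of the genes.

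The count of genes called in this comparison depended on which libraries shared the estimate of the spread. Without WT replicate 1, which is in neither group, 16 of the 47 genes were called, beside 10.3% of all genes, and the median was again 0.51. Without WT replicate 1 and Tia1+/- replicate 3 it was 25 of 47, beside 22.9% of all genes. With only the 6 libraries of both groups it was 24 of 46, beside 20.1%. The median was 0.38 with the level of the 15 bulb genes as a covariate, which called 2 of the 47 genes beside 6.95% of all genes, and 0.34 with offsets for GC content and length, where the median over all genes was −0.080.

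**Figure D2:**
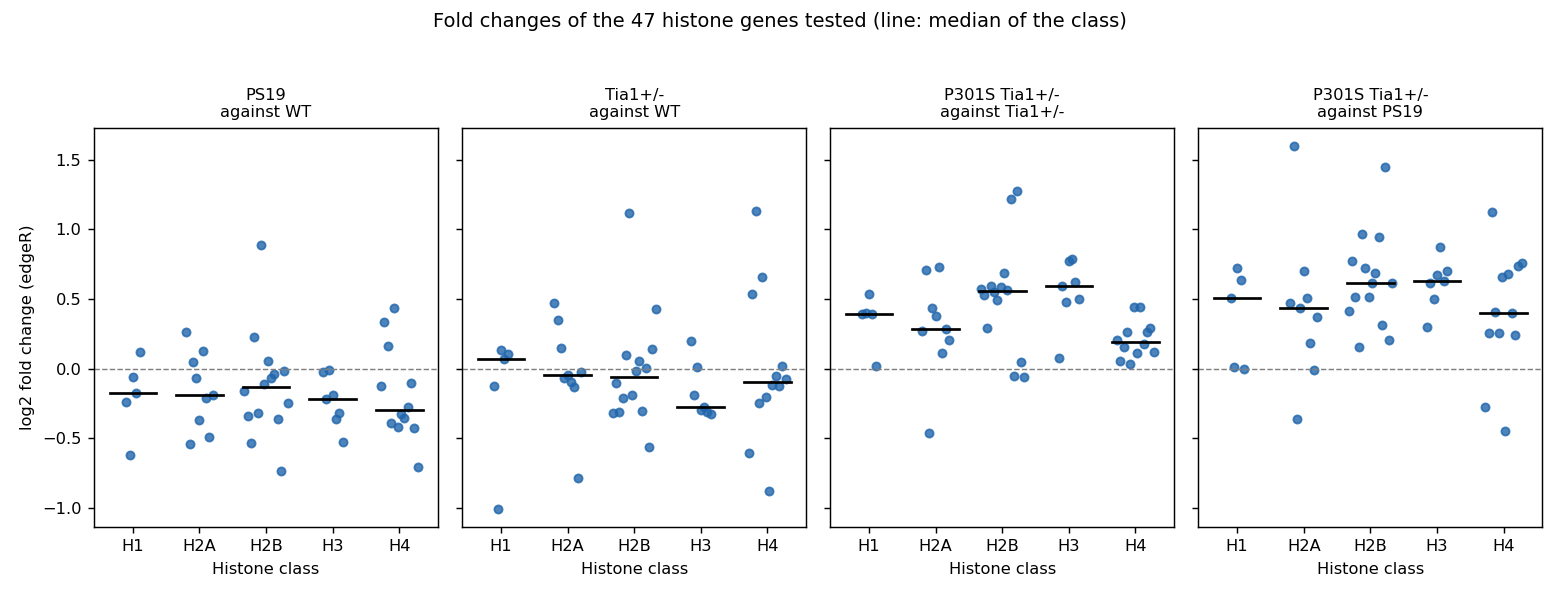
log2 fold changes from edgeR of the 47 histone genes tested, by class, in 4 comparisons. Each point is a gene and the line is the median of the class. In P301S Tia1+/- against PS19, which led to the choice of the genes, 42 of 47 points lie above 0. In PS19 against WT, which shares the PS19 libraries, 37 of 47 lie below 0.

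In P301S Tia1+/- against Tia1+/- mice, which asks for the effect of tau where Tia1 is reduced, 44 of the 47 genes were higher, as were 51.1% of all genes, and 3 lower, with a median log2 fold change of 0.39 against 0.0064 over all genes. edgeR called 0 of the 47 genes, and 0% of all genes, at an adjusted p under 0.05. At an unadjusted p under 0.05 there were 15 genes, all higher, where 8.92% of all genes were higher and 6.66% lower at that limit. DESeq2's Wald test called 7 of 45, beside 2.75% of all genes. The libraries did not overlap for 21 genes, all higher, where 14.9% of all genes were higher and 11.1% lower without overlap. The comparison shares its P301S Tia1+/- libraries with the one against PS19. Without WT replicate 1, 9 genes were called beside 6.11% of all genes, and without Tia1+/- replicate 3 as well it was 15 beside 23.4%, with 38 genes higher, 9 lower and a median of 0.36.

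In P301S Tia1+/- against WT mice 39 genes were higher, as were 53.4% of all genes, and 8 lower, with a median log2 fold change of 0.34 against 0.024 over all genes. edgeR called 0 of the 47 genes and 1.31% of all genes. At an unadjusted p under 0.05, 16 were higher and 3 lower, where 8.57% and 9.46% of all genes were, and DESeq2's Wald test called 5 of 40, beside 7.46% of all genes. Without overlap, 15 genes were higher, as were 12.4% of all genes, and 2 were lower (Hist1h1b and Hist1h4i), as were 10.8%. This comparison too shares its P301S Tia1+/- libraries with the one against PS19. Without WT replicate 1, 13 genes were called beside 10.5% of all genes and the median was 0.49. The median was 0.26 with the bulb covariate and 0.15 with offsets for GC content and length, where 34 genes were higher and 13 lower and the median over all genes was −0.066.

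In PS19 against WT mice, which asks for the effect of tau alone, 10 genes were higher, as were 49% of all genes, and 37 lower, with a median of −0.19. edgeR called 0 of the 47 genes and 0% of all genes. At an unadjusted p under 0.05, 1 was higher and 8 were lower, where 6.56% and 9.73% of all genes were, and DESeq2's Wald test called 0 of 46, beside 2.77% of all genes. Without overlap 0 were higher and 6 were lower (Hist3h2bb-ps, Hist1h1b, Hist1h4d, Hist2h4, Hist2h2bb and Hist4h4), where 9.75% and 11% of all genes were. Without WT replicate 1, 23 genes were higher and 24 lower and the median was −0.056, while the class sums of PS19 were still 0.887 (H2A), 0.917 (H2B), 0.954 (H3) and 0.884 (H4) times those of WT and that of H1 was 1.08 times. With the bulb covariate the median was −0.0037. The comparison shares its PS19 libraries with the contrast that led to the choice of the genes, so low PS19 values are part of that choice.

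In Tia1+/- against WT mice 18 genes were higher, as were 50.7% of all genes, and 29 lower, with a median of −0.072. 1 gene of the 47, Hist1h1b, passed edgeR's threshold, as did 0.712% of all genes. At an unadjusted p under 0.05, 3 were higher and 4 lower, where 8.63% and 10.5% of all genes were, and DESeq2's Wald test called 4 of 45, beside 6.34% of all genes. Without overlap 3 were higher (Hist3h2bb-ps, Hist1h4f and Hist1h4c) and 5 lower (Hist1h1b, Hist1h4i, Hist1h4d, Hist1h4a and Hist2h2ac), where 9.6% and 10.4% of all genes were. The sign of the median turned without WT replicate 1 (0.084) and with the bulb covariate (0.050).

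In PS19 against Tia1+/- mice 14 genes were higher, as were 47.8% of all genes, and 33 lower, with a median of −0.15, and edgeR called 0 of the 47 genes and 0.0712% of all genes. At an unadjusted p under 0.05, 1 was higher and 4 were lower, where 2.12% and 2.69% of all genes were, and DESeq2's Wald test called 0, beside 0.232% of all genes. Without overlap 2 were higher and 6 lower, where 6.52% and 5.9% of all genes were. The PS19 libraries are also those of the contrast that led to the choice of the genes. The interaction asks whether the difference between Tia1+/- and Tia1 wild type differed between mice with and without tau, and it holds the contrast that led to the choice of the genes. Its log2 values were above 0 for 41 genes, as for 50.5% of all genes, and below 0 for 6, with a median of 0.63 against 0.0049 over all genes. edgeR called 0 of the 47 genes and 0.00648% of all genes, 19 were above 0 at an unadjusted p under 0.05, where 13.6% of all genes were above and 9.28% below 0, and DESeq2's Wald test called 10, beside 7.38% of all genes. The median of the interaction was 0.43 without WT replicate 1 and 0.25 with the bulb covariate.

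H1 histones bind the linker DNA between nucleosomes. The H1 sum was 161, 146 and 156 CPM in P301S Tia1+/- mice and 148.5, 101.5 and 96.2 CPM in PS19 mice, so PS19 replicate 1 lay within the P301S Tia1+/- range. It was 112.5, 125.5 and 131 CPM in Tia1+/- and 151, 108 and 105 CPM in WT mice. The P301S Tia1+/- libraries lay above those of Tia1+/- (1.25 times) and overlapped with PS19 (1.34 times) and WT (1.27 times). Hist1h1c, Hist1h1e and Hist1h1d were the H1 genes with the highest counts, and Hist1h1a followed at 14.2 CPM.

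Hist1h1c, the H1 gene with the highest level per kilobase, was at 61.1, 53.4 and 60.1 CPM in P301S Tia1+/- mice. In PS19 mice it was at 46.3, 29.4 and 29.9 CPM, in Tia1+/- mice at 36.9, 38.2 and 45.6 CPM, and in WT mice at 53.3, 29.8 and 26.9 CPM. Each P301S Tia1+/- library thus lay above all others, with WT replicate 1 the nearest. Its log2 fold change was 0.53 ± 0.25 (SE) against Tia1+/- (adjusted p = 0.33, edgeR) and 0.67 ± 0.25 against WT (adjusted p = 0.19, edgeR), and it passed in neither. Hist1h1e did not show this order, at 44.9, 42.4 and 41.1 CPM in P301S Tia1+/- and 56.9, 36.3 and 35.2 CPM in PS19 mice. Hist1h1d had a mean of 29.6 ± 2.94 CPM (SD, n = 3) in P301S Tia1+/- and 19.01 ± 4.02 CPM in PS19 mice.

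Hist1h1b, an H1 gene with no 50-base stretch in any other annotated gene, was the only histone gene that passed edgeR's threshold in the fit of all 12 libraries, whereas DESeq2's Wald test and fits without some libraries called others. It was at 7.84, 11.3 and 9.66 CPM in WT mice and at 5.11, 5.06 and 4.19 CPM in Tia1+/- mice. In PS19 mice it was at 6.44, 6.72 and 5.60 CPM and in P301S Tia1+/- mice at 5.79, 7.14 and 6.01 CPM. All WT libraries lay above all other libraries, and all Tia1+/- libraries lay below all others. Hist1h1b fell by 1.01 ± 0.17 on the log2 scale in Tia1+/- against WT (SE, adjusted p = 0.0418, edgeR). That comparison also sets libraries with Xist against libraries with Ddx3y, so the Tia1 genotype and sex cannot be told apart in it. Hist1h1b differed from WT by −0.62 ± 0.17 in PS19 (adjusted p = 0.17, edgeR) and by −0.61 ± 0.17 in P301S Tia1+/- mice (adjusted p = 0.095, edgeR). The interaction for Hist1h1b was 1.02 ± 0.24 on the log2 scale.

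The call of Hist1h1b depended on the fit, while its direction did not. The adjusted p was 0.32 with only the 6 libraries of both groups and 0.097 with the replicate block, in edgeR, and leaving out WT replicate 2, any Tia1+/- library, PS19 replicate 1 or 2, or any P301S Tia1+/- library also ended it, with log2 fold changes between −1.05 and −0.87. It passed without WT replicate 1 (−1.12), the library that stands apart.

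H2A and H2B pair as dimers and join the nucleosome together. The H2A sum was 114, 112 and 104 CPM in P301S Tia1+/- and 89.9, 76.0 and 85.3 CPM in PS19 mice. It was 85.2, 98.1 and 83.4 CPM in Tia1+/- and 97.1, 97.7 and 91.1 CPM in WT mice. The P301S Tia1+/- libraries lay above those of every other group, and the PS19 libraries lay below those of WT (0.879 times). WT replicate 1 was not high in this class.

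Hist3h2a took the largest part of the H2A counts and was at 54.2, 53.5 and 49.1 CPM in P301S Tia1+/- and 44.2, 37.1 and 39.9 CPM in PS19 mice, without overlap. Its log2 fold change in this comparison was 0.37 ± 0.10. Hist1h2ai and Hist1h2ak had means of 20.7 ± 0.835 and 11.03 ± 0.262 CPM in P301S Tia1+/- and of 15.3 ± 2.54 and 6.75 ± 0.956 CPM in PS19 mice (SD, n = 3). Hist1h2an was at 8.93, 9.24 and 9.82 CPM in P301S Tia1+/- mice and between 5.07 and 7.52 CPM in all other libraries, and its log2 fold change was 0.73 ± 0.18 against Tia1+/- (adjusted p = 0.18, edgeR) and 0.64 ± 0.18 against WT (adjusted p = 0.091, edgeR).

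Hist2h2ac went another way, with its highest values in WT. It was at 13.5, 11.3 and 8.21 CPM in WT, 5.59, 7.03 and 6.51 CPM in Tia1+/-, 8.52, 7.29 and 7.59 CPM in PS19 and 9.31, 7.50 and 6.48 CPM in P301S Tia1+/- mice. The WT libraries lay above those of Tia1+/-, with a log2 fold change of −0.78 ± 0.20 (adjusted p = 0.084, edgeR), and overlapped with those of the other groups. Its head-to-head neighbour Hist2h2be, 238 bases away, had its highest mean in P301S Tia1+/- mice, while WT replicate 1 was high in both genes.

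The H2B sum was 196, 192 and 183 CPM in P301S Tia1+/- and 143, 126.5 and 125 CPM in PS19 mice. It was 142, 159 and 148 CPM in Tia1+/- and 173, 148 and 139 CPM in WT mice, so that P301S Tia1+/- lay above every other group. Hist2h2be, an H2B gene on chromosome 3 that has an annotated transcript far longer than its coding sequence and no 50-base stretch in any other annotated gene, was at 11.95, 16.9 and 14.6 CPM in P301S Tia1+/- mice. It was at 5.92, 5.04 and 4.94 CPM in PS19, 4.97, 6.04 and 6.89 CPM in Tia1+/- and 16.01, 6.09 and 4.41 CPM in WT mice. The P301S Tia1+/- libraries and WT replicate 1 thus lay above all others. The log2 fold change was 1.45 ± 0.38 against PS19, and 1.28 ± 0.38 against Tia1+/- (adjusted p = 0.20, edgeR). Hist2h2be is outside the rule for named genes and was chosen after its values were seen.

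Hist1h2bn was at 37.9, 33.7 and 34.4 CPM in P301S Tia1+/- mice and between 19.2 and 27.5 CPM in the other 9 libraries, without overlap. Its log2 fold change was 0.69 ± 0.15 against PS19, and 0.62 ± 0.15 against WT (adjusted p = 0.062, edgeR). Hist1h2bl was at 25.5, 23.1 and 22.3 CPM in P301S Tia1+/- and between 14.8 and 21.1 CPM elsewhere, and its log2 fold change against Tia1+/- was 0.59 ± 0.13 (adjusted p = 0.17, edgeR). Both share more than 80% of their 50-base stretches with other H2B genes, so their single values are uncertain.

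Hist2h2bb and Hist3h2ba did not stand out in P301S Tia1+/- mice. Hist2h2bb was at 50.8, 47.02 and 40.5 CPM there and at 44.7, 47.1 and 50.7 CPM in WT, 49.8, 56.2 and 37.2 CPM in Tia1+/- and 40.3, 34.3 and 36.5 CPM in PS19 mice. The PS19 libraries were the low ones, with a log2 fold change of −0.37 ± 0.14 against Tia1+/- (adjusted p = 0.99, edgeR). All of its stretches also lie in annotated read-through transcripts. Hist3h2ba had means between 19.5 ± 3.02 CPM in PS19 and 22.6 ± 2.10 CPM in P301S Tia1+/- mice (SD, n = 3). Its pseudogene neighbour Hist3h2bb-ps was at 3.69, 3.92 and 3.49 CPM in PS19 and at 6.07, 6.11 and 5.54 CPM in Tia1+/- mice, with a log2 fold change of −0.67 ± 0.18 (adjusted p = 0.75, edgeR).

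H3 and H4 form the tetramer at the centre of the nucleosome. The H3 sum was 93.8, 87.2 and 81.9 CPM in P301S Tia1+/- and 58.0, 46.2 and 60.5 CPM in PS19 mice. It was 47.3, 65.8 and 57.7 CPM in Tia1+/- and 83.5, 59.0 and 56.1 CPM in WT mice, where replicate 1 lay within the P301S Tia1+/- range. Of the classes, H3 had the largest ratios of P301S Tia1+/- to PS19 (1.60) and to Tia1+/- (1.54), and all 7 H3 genes tested were higher in both comparisons.

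Hist1h3h was at 27.5, 27.5 and 25.8 CPM in P301S Tia1+/-, 15.02, 11.5 and 17.5 CPM in PS19, 12.5, 18.0 and 16.4 CPM in Tia1+/- and 24.6, 16.7 and 15.4 CPM in WT mice. The P301S Tia1+/- libraries lay above all others, with WT replicate 1 the nearest. The log2 fold change was 0.87 ± 0.20 against PS19 and 0.78 ± 0.20 against Tia1+/- (adjusted p = 0.18, edgeR). Hist1h3g was at 6.79, 6.12 and 6.37 CPM in P301S Tia1+/- and between 3.31 and 5.92 CPM elsewhere, with a log2 fold change of 0.78 ± 0.19 against Tia1+/- (adjusted p = 0.18, edgeR). Hist1h3i, Hist1h3f and Hist1h3e had means of 28.1 ± 4.36, 8.23 ± 0.622 and 8.98 ± 0.607 CPM in P301S Tia1+/- and of 18.1 ± 4.13, 5.81 ± 0.516 and 5.85 ± 0.918 CPM in PS19 mice (SD, n = 3).

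The H4 sum was 399, 360.5 and 333 CPM in P301S Tia1+/- and 284, 231 and 247 CPM in PS19 mice, without overlap (1.43 times). It was 298, 322 and 294 CPM in Tia1+/- mice, above all PS19 libraries and below all P301S Tia1+/- libraries, and 376, 278 and 296 CPM in WT mice. Hist1h4j was at 60.3, 58.2 and 57.7 CPM in P301S Tia1+/-, 42.9, 30.6 and 36.6 CPM in PS19, 41.8, 44.2 and 43.9 CPM in Tia1+/- and 56.8, 42.4 and 41.9 CPM in WT mice. The P301S Tia1+/- libraries were above all others, WT replicate 1 was next, and PS19 was the lowest group by its mean. The log2 fold change of Hist1h4j was 0.68 ± 0.14 against PS19, and that of PS19 against WT was −0.36 ± 0.14 (adjusted p = 0.25, edgeR), which went to −0.19 without WT replicate 1.

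Hist2h4 and Hist1h4d were low in PS19 mice, whose libraries are part of the contrast that led to the choice of the genes. Hist2h4, which shares only 1.01% of its 50-base stretches with another gene, was at 13.4, 10.2 and 13.7 CPM in PS19, 19.1, 14.8 and 16.4 CPM in WT, 18.8, 15.7 and 16.4 CPM in Tia1+/- and 23.1, 20.2 and 18.98 CPM in P301S Tia1+/- mice. All PS19 libraries lay below all others, with a log2 fold change of −0.43 ± 0.15 against WT (adjusted p = 0.21, edgeR) and −0.45 ± 0.15 against Tia1+/- (adjusted p = 0.92, edgeR), and P301S Tia1+/- was 0.74 ± 0.15 above PS19. Hist1h4d was at 47.2, 40.0 and 38.1 CPM in PS19 and 54.4, 55.4 and 54.2 CPM in WT mice, without overlap (log2 fold change −0.39 ± 0.11, adjusted p = 0.18, edgeR). In P301S Tia1+/- mice it was at 61.9, 54.3 and 49.9 CPM and in Tia1+/- mice at 46.3, 51.4 and 40.9 CPM.

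Hist1h4c, an H4 gene, was high in the libraries with the Tia1 allele. It was at 30.8, 32.5 and 21.3 CPM in Tia1+/- and 36.8, 32.3 and 25.2 CPM in P301S Tia1+/- mice, and at 15.5, 8.63 and 14.5 CPM in WT and 14.5, 9.69 and 18.9 CPM in PS19 mice. All 6 libraries with the allele lay above all 6 without it. The log2 fold change of Tia1+/- against WT was 1.13 ± 0.28 (adjusted p = 0.081, edgeR; 0.0068 by DESeq2), that of P301S Tia1+/- against PS19 was 1.13 ± 0.28, and the interaction was −0.0055 ± 0.39. P301S Tia1+/- against WT was 1.29 ± 0.28 (adjusted p = 0.052, edgeR). PS19 against WT was 0.16 ± 0.28 (adjusted p = 0.80, edgeR). The same 6 libraries are those with Xist, so for Hist1h4c too the Tia1 genotype and sex cannot be told apart.

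Hist1h4f was lowest in WT mice, at 5.52, 5.75 and 7.15 CPM, against 9.25, 10.5 and 9.41 CPM in Tia1+/-, 10.6, 8.09 and 6.32 CPM in PS19 and 9.43, 9.18 and 11.2 CPM in P301S Tia1+/- mice. The log2 fold change was 0.66 ± 0.19 in Tia1+/- (adjusted p = 0.11, edgeR) and 0.69 ± 0.19 in P301S Tia1+/- (adjusted p = 0.090, edgeR). Hist1h4k, the H4 gene with the highest level, had means of 81.9 ± 6.62 CPM in P301S Tia1+/-, 61.9 ± 11.1 CPM in PS19, 72.4 ± 6.03 CPM in Tia1+/- and 74.9 ± 13.1 CPM in WT mice (SD, n = 3). Hist1h4h had means of 46.2 ± 3.83 CPM in P301S Tia1+/- and 29.2 ± 1.15 CPM in PS19 mice, without overlap.

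**Figure D3:**
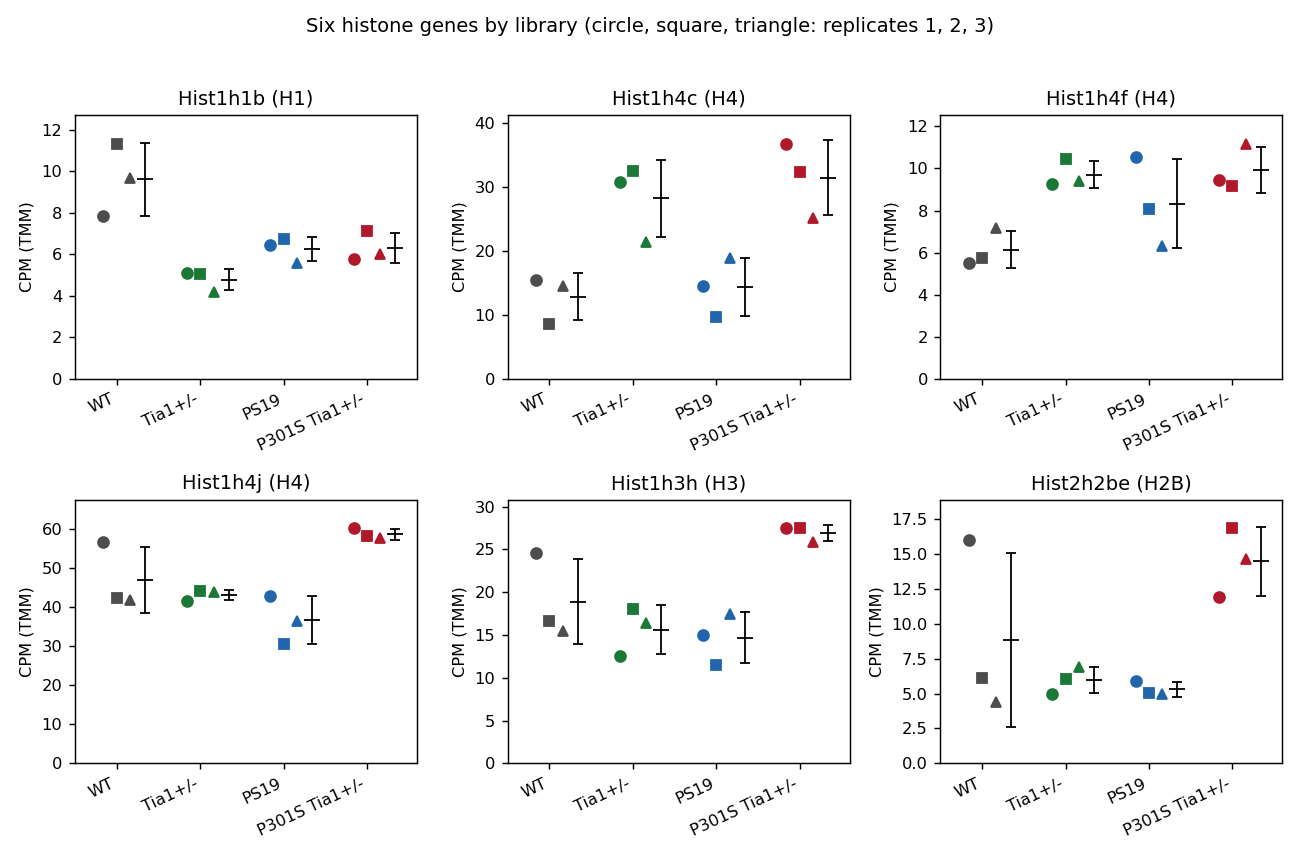
CPM of 6 histone genes in the 12 libraries, by group, with the mean and SD of 3 libraries in black. Hist1h1b is highest in WT, Hist1h4c is above 20 CPM in all 6 libraries with the Tia1 allele and below 20 CPM in the others, and Hist1h4j, Hist1h3h and Hist2h2be are high in P301S Tia1+/- mice and in WT replicate 1.

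Histone genes are near copies of each other, and how the authors' counting treated reads with several alignments is not given in the sources used here. Among the 47 genes tested, a median of 43.2% of the 50-base stretches of a gene's annotated transcripts was also found in another annotated gene. Among the 15 genes with at most 3 counts the median was 89.8%, and among the 8 genes without a count it was 91.5%. Of the 21 genes that were not tested, 16 shared at least 50% of their stretches, against 18 of the 47 tested. The 29 tested genes with less than 50% shared had a median log2 fold change of 0.51 in P301S Tia1+/- against PS19 and of 0.39 against Tia1+/-, as had all 47. The 5 that share no stretch with another histone gene (Hist1h1a, Hist1h1b, Hist2h2be, Hist2h2bb and Hist4h4) had medians of 0.51 and 0.39 in these 2 comparisons. Their medians were −0.62 in PS19 against WT and 0.051 in P301S Tia1+/- against WT. Each of these medians is the value of 1 gene, and Hist2h2bb shares 100% of its stretches with annotated genes outside the histone set.

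**Figure D4:**
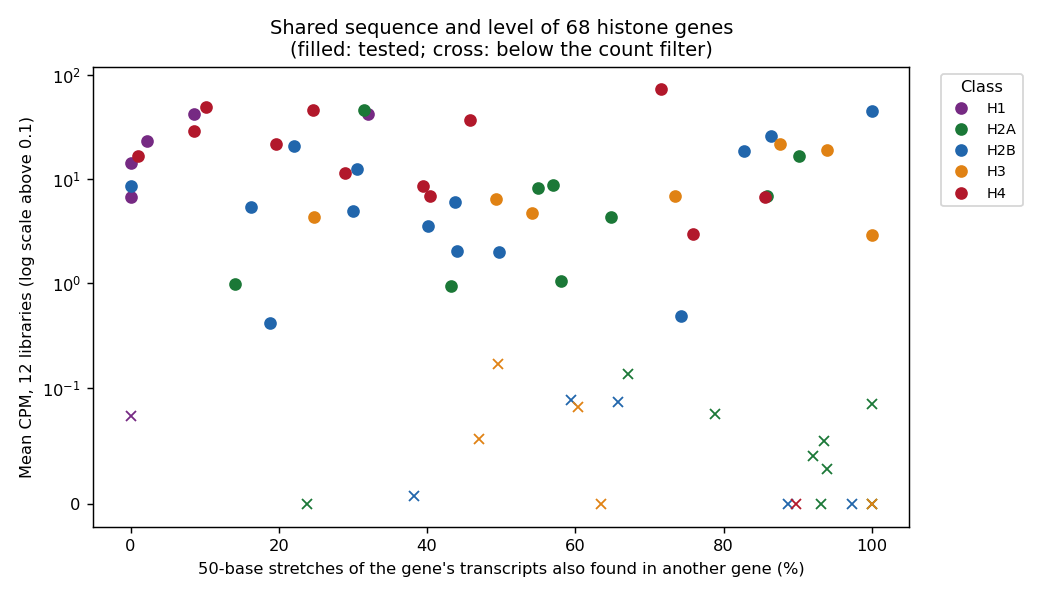
Mean CPM over the 12 libraries (symmetric log axis, linear below 0.1) of the 68 histone genes against the percentage of their 50-base stretches that another annotated gene also holds. Filled points are the 47 genes tested and crosses the 21 below the count filter, of which 16 share at least 50% of their stretches.

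There were 13 pairs of histone genes that lie head to head with fewer than 500 bases between them, each an H2A with an H2B gene. Both genes were tested in 7 of them. In P301S Tia1+/- against PS19 the log2 fold changes of the pairs were 0.71 and 0.69 for Hist1h2ak and Hist1h2bn, 295 bases apart, and 0.51 and 0.43 for Hist1h2bl and Hist1h2ai, 278 bases apart. They were 0.62 and 0.37 for Hist3h2bb-ps and Hist3h2a, and 0.51 and 0.95 for Hist1h2an and Hist1h2bp. They were 1.60 and 0.77 for Hist1h2ac and Hist1h2bc, but −0.36 and 0.16 for Hist1h2ae and Hist1h2bg, and −0.0089 and 1.45 for Hist2h2ac and Hist2h2be. Hist1h2ac, Hist1h2ae and Hist1h2bg had at most 34, 22 and 44 counts in a library, so their values are uncertain. The values within a pair were thus close in some pairs and apart in others.

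The genes that make, process and degrade histone mRNA are described next. Of 22 such genes, all tested, 8 were higher and 14 lower in P301S Tia1+/- against PS19, with a median log2 fold change of −0.029. edgeR called 0 of them, beside 0.24% of all genes. At an unadjusted p under 0.05, 2 were higher and 1 lower, where 11.7% and 7.62% of all genes were. Slbp, which encodes the stem-loop binding protein, was at 35.3, 31.0 and 29.5 CPM in P301S Tia1+/- and 36.2, 36.7 and 35.7 CPM in PS19 mice (log2 fold change −0.18 ± 0.12). Of the U7 snRNP proteins, Lsm10 had a log2 fold change of 0.031 ± 0.18 and Lsm11 of −0.67 ± 0.32. Zfp473, which acts with the U7 snRNP, was below 2 CPM in every library.

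Against WT, 2 of these 22 genes fell in P301S Tia1+/- mice by edgeR, which called 1.31% of all genes in that comparison. Cstf2, a subunit of a cleavage complex, was at 93.5, 95.9 and 93.5 CPM against 126, 131.5 and 129 CPM in WT and fell by 0.45 ± 0.063 on the log2 scale (adjusted p = 0.0145, edgeR). Srrt, which links the cap-binding complex to histone mRNA 3′ end formation, was at 57.8, 61.5 and 64.1 CPM against 89.5, 92.5 and 81.0 CPM and fell by 0.52 ± 0.083 (adjusted p = 0.0193, edgeR). Both were also lower in PS19 and in Tia1+/- than in WT mice in all libraries, without passing the threshold there. Both calls ended without any 1 of WT replicate 2 and the 3 P301S Tia1+/- libraries (adjusted p between 0.0619 and 0.107, edgeR), with the replicate block (0.0592 and 0.067) and with only the 6 libraries compared (0.111 and 0.12). With GC and length offsets Cstf2 no longer passed (0.0515) and Srrt did (0.00915).

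The replication-independent histone genes, which are expressed outside S phase and have poly(A) tails, are given for comparison. Their summed level was 959, 880 and 880 CPM in P301S Tia1+/-, 799, 708 and 698 CPM in PS19, 722, 764 and 777 CPM in Tia1+/- and 1142, 862 and 738 CPM in WT mice. Of the 11 genes 8 were higher in P301S Tia1+/- than in PS19, with a median log2 fold change of 0.15. edgeR called 0 of them, beside 0.24% of all genes. At an unadjusted p under 0.05, 2 were higher and 0 lower, where 11.7% and 7.62% of all genes were. H3f3b, which encodes the variant H3.3, was at 327, 297 and 291 CPM in P301S Tia1+/-, 238, 207 and 201 CPM in PS19 and 501, 292 and 217 CPM in WT mice. H2afz, the gene of variant H2A.Z, was at 154, 136 and 127 CPM in P301S Tia1+/- and 154, 147 and 137 CPM in PS19 mice (log2 fold change −0.068 ± 0.10).

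Of 18 histone chaperone genes tested, 10 were higher and 8 lower in P301S Tia1+/- against PS19, with a median of 0.038. edgeR called 0 of them, beside 0.24% of all genes. At an unadjusted p under 0.05, 1 was higher and 1 lower, where 11.7% and 7.62% of all genes were. Against WT 1 of the 18 passed, as did 1.31% of all genes. Nap1l1, a chaperone of H2A and H2B, was at 287, 269 and 243 CPM in P301S Tia1+/- and 369, 420 and 337 CPM in WT mice. It fell by 0.50 ± 0.099 on the log2 scale (adjusted p = 0.0405, edgeR). The call of Nap1l1 ended in 9 of the 12 fits that leave out 1 library (adjusted p up to 0.168, edgeR), all except those without WT replicate 1, WT replicate 3 or Tia1+/- replicate 3, and with the replicate block (0.067), GC and length offsets (0.0659), no filter (0.0604) and only the 6 libraries compared (0.161).

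Markers of dividing cells, in which these histone genes are known to be transcribed, were also summed. The summed level of 21 such genes was 206, 196.5 and 198 CPM in P301S Tia1+/-, 183, 178 and 176.5 CPM in PS19, 174, 184 and 181 CPM in Tia1+/- and 226, 183.5 and 179 CPM in WT mice, and none of the 21 was at 0 in all libraries. Here too, WT replicate 1 and the P301S Tia1+/- libraries lay above all others. Pcna made up the largest part of this sum, at 45.8 to 81.3 CPM, whereas Mki67 and Top2a added at most 4.32 and 3.44 CPM. For Pcna the P301S Tia1+/- libraries (63.1, 57.7 and 51.8 CPM) overlapped with those of PS19 (54.6, 53.9 and 58.1 CPM). Of 18 tested, 13 were higher and 5 lower in P301S Tia1+/- than in PS19, with a median of 0.15. edgeR called 0 of them, beside 0.24% of all genes. At an unadjusted p under 0.05, 2 were higher and 0 lower, where 11.7% and 7.62% of all genes were. Mki67 was at 2.14, 2.94 and 3.09 CPM in P301S Tia1+/- and at 2.96, 4.32 and 2.17 CPM in PS19 mice, and Top2a at 2.14, 1.80 and 3.39 CPM and at 1.403, 3.44 and 1.63 CPM. The groups overlapped for both genes, and whether the share of dividing cells differed was not tested.

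The P301S Tia1+/- libraries and WT replicate 1 had the highest histone sums and also the highest sums of neuroblast and bulb markers. The sum of 10 neuroblast genes was 749, 674 and 695 CPM in P301S Tia1+/- and 680 CPM in WT replicate 1, against 405 to 528 CPM in the other 8 libraries. Among these 8 the order was not shared. Tia1+/- replicate 3 had 528 CPM of neuroblast genes and 715 CPM of histone genes, and Tia1+/- replicate 2 had 423.5 and 771 CPM. Tubb3 made up the largest part of the neuroblast sum, at 333 to 492 CPM, and was at 362 CPM in WT replicate 1. Dcx, the defining marker, was at 93.1, 74.0 and 96.1 CPM in P301S Tia1+/- mice, 91.4 CPM in WT replicate 1, 54.6 CPM in Tia1+/- replicate 3 and 19.6 to 36.7 CPM elsewhere. Omp, the marker of olfactory sensory neurons, was at 72.6, 135 and 133 CPM in P301S Tia1+/- mice, at 162 and 18.9 CPM in WT replicates 1 and 2 and at most 4.03 CPM elsewhere, and S100a5 at 64.8, 108 and 104 CPM, at 102 and 12.2 CPM and at most 5.63 CPM. All 15 bulb genes and all 10 neuroblast genes were higher in P301S Tia1+/- than in PS19, with median log2 fold changes of 5.87 and 1.87. edgeR called 1 of the 25, S100a5, beside 0.24% of all genes. No P301S Tia1+/- library had a low level of the bulb genes, so the tissue that was taken and the genotype cannot be told apart in that group. With the bulb level as a covariate the median of the histone genes was 0.38 in P301S Tia1+/- against PS19 and 0.24 against Tia1+/-.

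**Figure D5:**
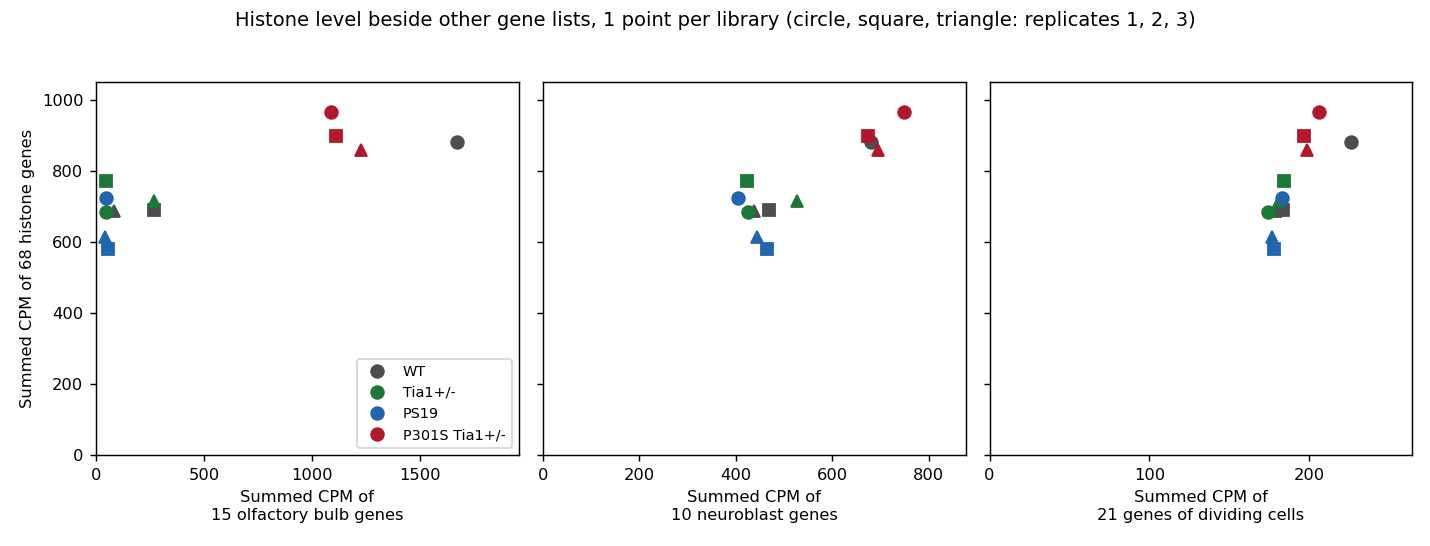
Summed CPM of the 68 histone genes (y axis) against that of 15 olfactory bulb genes, 10 neuroblast genes and 21 genes of dividing cells (x axes), 1 point per library. The 3 P301S Tia1+/- libraries and WT replicate 1 lie apart from the other 8 libraries, at 858 CPM or more of histone genes and at 1088 CPM or more of bulb genes.

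Oligodendrocyte progenitors, the dividing cells of the adult cortex, had summed marker levels of 141 to 163 CPM over 6 genes in P301S Tia1+/- and 159 to 186 CPM in PS19 mice. The markers of cortical neurons summed to 932 to 1105 CPM in P301S Tia1+/- and 1142 to 1289 CPM in PS19 mice. Hbb-bs and the other 3 adult globin genes of the blood list are at 0 in all libraries, and the fifth, Alas2, gave between 1.45 and 4.34 CPM. Why the globin genes have no count was not tested, so this is not read as a lack of blood. The part of these cells in the histone values was not tested beyond the covariate.

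Other short RNAs without a poly(A) tail were also looked at, with a list of 7 genes made after the counts were seen. They summed to 7638, 9886 and 11048 CPM in P301S Tia1+/-, 5474, 5428 and 5493 CPM in PS19, 6532, 7588 and 9149 CPM in Tia1+/- and 7392, 5336 and 5727 CPM in WT mice. P301S Tia1+/- lay above all PS19 libraries, and so did Tia1+/-. Rpph1, the RNA of RNase P, was at 3401, 5691 and 6231 CPM in P301S Tia1+/- and 1946, 1962 and 2176 CPM in PS19 mice. The replicate with the highest histone sum in P301S Tia1+/- mice (replicate 1) had the lowest sum of these RNAs, but their order differed by gene. Rmrp and Rpph1, which made up most of the sum, were lowest in replicate 1. Scarna2 lay between the other replicates there, and Scarna10 and Scarna13 were highest there. Vaultrc5 (82, 69 and 85 counts) and Terc (19 counts in each) had too few counts in this group to be ordered. The part of RNA recovery in the histone values was not tested.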

How the data were processed

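Cortex RNA of 12 mice was made into stranded total RNA libraries and sequenced from both ends. The deposited values are raw counts per gene, which the authors made by alignment to mm10 with TopHat2 2.0.6 (per the processing notes) and counting with featureCounts. The annotation, the strand setting and the handling of reads with several alignments are not given in the sources used here. No column was left unused (0).

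Groups followed the sample titles, since the deposited genotypes of both groups with the Tia1 allele are swapped against them. Counts of all 12 libraries were fitted together in edgeR 4.0.16 (R 4.3.3, limma 3.58.1) with filterByExpr, TMM scaling and the quasi-likelihood test. Adjusted p-values are Benjamini-Hochberg over the 15440 genes tested, with 0.05 as the threshold. Errors of fold changes are SE from that fit. Each mouse gave 1 library. DESeq2 1.42.0 was an alternative, as were other filters, a replicate block and offsets for GC content and length. Others were the mean log2 CPM of 15 bulb genes as a covariate, only the groups compared, and leaving out each library.

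The members and gene lists were chosen with earlier results of these data known, and the list of RNAs without poly(A) and the joint removal of WT replicate 1 and Tia1+/- replicate 3 were added after the counts were seen. Named were, per class, the 4 genes with the highest mean CPM, every called gene, the 4 genes with the smallest p in each comparison, the testis genes, and marker and machinery genes listed beforehand. Hist1h2ac, Hist1h2ae, Hist1h2bc, Hist1h2bg, Hist1h2bp, Hist2h2be, Hist4h4, Tia1, Alas2, Pcna, Rpph1 and the genes named without overlap were chosen after their values were seen. Same-numbered libraries were not treated as pairs: of 18 pairs 7 had a correlation of deviations over 0.1 (range −0.531 to 0.305). The level of 1 marker gene is not reported here.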

Additional observations from a re-analysis of the deposited data

Results flagged for a closer look

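The H2A sum was lower in PS19 than in WT mice, with a mean difference of −11.55 CPM, with every PS19 library below every WT library, and higher by 20.98 CPM in P301S Tia1+/- than in Tia1+/- mice, with every P301S Tia1+/- library above every Tia1+/- library. With the titles followed, these 2 differences had opposite signs. The genotype entries exchange the Tia1+/- and P301S Tia1+/- libraries, and by them the second difference would change sign. The P301S Tia1+/- libraries also held 1088 to 1230 CPM of the bulb genes, against 44.7 to 270 CPM in Tia1+/-. Tissue and genotype therefore cannot be told apart there. Whether the 2 differences differ was not tested, since that holds the contrast that led to the choice of the genes.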

How the results depend on the processing

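Over 28 named fold changes and their alternatives, 537 values kept direction and side of the threshold, 63 passed it newly, 12 no longer passed and 0 reversed; all 12 were Hist1h1b in Tia1+/- against WT. Of the values for counts and medians, 365 stayed within the limits and 135 moved. The comparisons are lettered (a) PS19 against WT, (b) Tia1+/- against WT, (c) P301S Tia1+/- against PS19, (d) P301S Tia1+/- against Tia1+/-, (e) P301S Tia1+/- against WT, (f) PS19 against Tia1+/- and (g) the interaction. From (a) to (g) DESeq2's Wald test called 431, 960, 805, 416, 982, 37 and 1206 genes, with 4, 11, 7, 5 and 10 histone genes in (b) to (e) and (g). The bulb covariate gave 934, 1410, 1073, 1101, 1341, 31 and 1229 genes, with 2, 2, 4 and 1 histone genes in (a), (c), (e) and (g), and an interaction median of 0.25. Without WT replicate 1 and Tia1+/- replicate 3 there were 74, 267, 3569, 3646, 4021, 44 and 2106 genes, and 2, 25, 15, 19 and 8 histone genes in (b) to (e) and (g). The histone medians there were −0.06, 0.05, 0.49, 0.36, 0.46, −0.08 and 0.49.

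With only the groups compared, 6, 3025, 334, 14 and 6 genes were called in (b) to (f), and 0, 24 and 5 histone genes in (b) to (d). Without a filter 73, 122 and 5 genes were called in (b), (e) and (g), and with at least 10 counts in every library 15, 4 and 0 in (c), (f) and (g), with 1 histone gene in (e). GC and length offsets gave 70 and 14 in (b) and (g). The replicate block called 9, 7, 18, 6 and 0 genes in (b), (c), (e), (f) and (g), and with GC and length offsets 8, 7, 18, 7 and 0, with 0 histone genes in both. The 5 genes tested that share no stretch with another histone gene had medians of −0.62 in PS19 against WT and 0.051 in P301S Tia1+/- against WT. The cause was not tested.

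Leaving out 1 library gave 0 to 1, 8 to 497, 6 to 1606, 0 to 956, 9 to 1637, 5 to 13 and 0 to 1035 genes, and 0 to 2, 0 to 16, 0 to 9, 0 to 13 and 0 to 5 histone genes in (b) to (e) and (g). The highest of (c) to (e) came without WT replicate 1. The medians ranged from −0.298 to −0.056, −0.158 to 0.084, 0.463 to 0.558, 0.346 to 0.448, 0.225 to 0.487, −0.217 to −0.060 and 0.433 to 0.694. With 3 mice per group, fold changes of genes at a few CPM carry wide errors, and counts cover no more than these mice.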
